A study of Mus musculus with 6 samples.

Results

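MicroRNAs (miRNAs) are short RNAs that hold down the messenger RNAs they pair with. Among those measured in left ventricle of sunitinib-treated and vehicle-treated mice were 5 products of 3 hairpins known from blood-forming cells: mmu-miR-223-3p, mmu-miR-142a-3p, mmu-miR-142a-5p, mmu-miR-511-3p and mmu-miR-511-5p, written without the species prefix from here on. They are 5 of the 1881 mouse miRNAs on the arrays and were taken by name from the scanner files and from the authors' value table, where each is present. The set was chosen by the sunitinib minus control difference of these same arrays, in which miR-511-3p, miR-223-3p and miR-142a-3p were already known to be low. Their levels and differences are therefore a description with no p-value. Where a count of limma calls takes them in, their calls follow from that choice and are no evidence.

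The samples were 3 left ventricles labelled sunitinib, an anticancer drug that blocks receptor tyrosine kinases such as those for VEGF and PDGF, and 3 labelled control, which received vehicle. All came from male C57BL/6 mice. The labels state no dose, duration or age, nor whether each sample is its own animal, so p-values measure the spread between these samples only, and it may be technical in part. Each array, of Agilent's 1-colour miRNA design, carried the Cy3-labelled RNA of 1 sample on short DNA probes printed on several spots each.

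miR-223 is made in cells of the myeloid line, above all neutrophils and their precursors, under the transcription factors PU.1 and C/EBP, and restrains granulocyte activation. miR-142 is made in nearly all blood-forming cells, and both arms of its hairpin are used. miR-511 lies within Mrc1, the gene of the mannose receptor CD206 that marks many tissue macrophages, and is made together with it. The heart holds resident macrophages and, within its vessels, blood leukocytes, so whole ventricle RNA contains these miRNAs beside those of muscle.

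The mature sequences are shown because they decide what each probe can read. Capitals mark the seed, bases 2 to 8, through which a miRNA pairs with its targets. Sequences are those of RefSeq (GRCm38.p6), which held a mature entry for 4 of the 5 miRNAs.
miR-223-3p: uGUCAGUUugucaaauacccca
miR-142a-3p: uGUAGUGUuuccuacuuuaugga
miR-142a-5p: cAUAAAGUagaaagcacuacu
miR-511-3p: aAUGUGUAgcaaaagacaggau

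The 4 seeds differ from each other, and no other of the 1679 mature names in the RefSeq table shares any of them. That table holds 1608 of the 1881 miRNAs on the arrays, and the others were not searched. The hairpins, with the miRNAs described here in capitals, show which arm each comes from.
Mir223: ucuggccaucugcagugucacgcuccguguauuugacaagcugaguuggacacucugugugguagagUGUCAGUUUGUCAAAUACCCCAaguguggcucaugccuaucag
Mir142: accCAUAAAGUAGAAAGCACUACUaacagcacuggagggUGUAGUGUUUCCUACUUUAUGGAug
Mir511: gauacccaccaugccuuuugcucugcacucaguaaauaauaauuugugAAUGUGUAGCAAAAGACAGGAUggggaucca

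Mir223 lies at chrX:96242817-96242926, Mir142 at chr11:87756864-87756927 and Mir511 at chr2:14261003-14261081, each on the plus strand (GRCm38.p6). Mir511 falls inside the bounds of Mrc1 in the RefSeq table. The Mir142 hairpin falls inside that of Mir142b on the opposite strand. The scanner files name mm9 as their build, and their probe positions for miR-223-3p (chrX:93438225-93438244 for the longer probe) lie outside the GRCm38.p6 hairpin, as a different build would place them. The position they give for miR-142a-3p (chr11:87756904-87756925 for the longer probe) lies inside it, so that position cannot be taken as mm9.

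The 6 arrays shared 1 slide, with 0 saturated spots. Of the 1881 miRNAs, 234 to 242 were well above background on the sunitinib arrays and 237 to 252 on the control arrays. The scanner software marks a spot as such where it exceeds background by 13 background SDs, per the file headers, and here a probe counted where at least 50% of its spots were so marked. The SD of the log2 difference between 2 arrays ran from 0.177 to 0.410 within groups and from 0.326 to 0.477 between groups. The tissue label held up in its markers. All 4 muscle miRNAs looked up, miR-1a-3p, miR-133a-3p, miR-208a-3p and miR-499-5p, were well above background on all 6 arrays, and miR-122-5p of liver, miR-124-3p of brain and miR-200c-3p of epithelia on none.

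miR-223-3p was lower in sunitinib hearts on every array. Its log2 scaled signal was 7.04, 7.04 and 6.91 in sunitinib replicates 1 to 3, against 8.26, 8.47 and 8.22 in control replicates 1 to 3. The groups did not overlap, and the lowest control array stood 1.18 above the highest sunitinib array. The means were 6.996 ± 0.077 in sunitinib and 8.32 ± 0.13 in control (SD, n = 3 each), a difference of -1.32 (SE 0.09) or 2.50-fold lower in sunitinib. The within-group SD was 0.108, and its median over the 237 tested miRNAs was 0.112. The other arm, miR-223-5p, was well above background on none of the 6 arrays, with means of 0.057 and 0.034 in sunitinib and control, so that its level could not be compared.

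**Figure D1:**
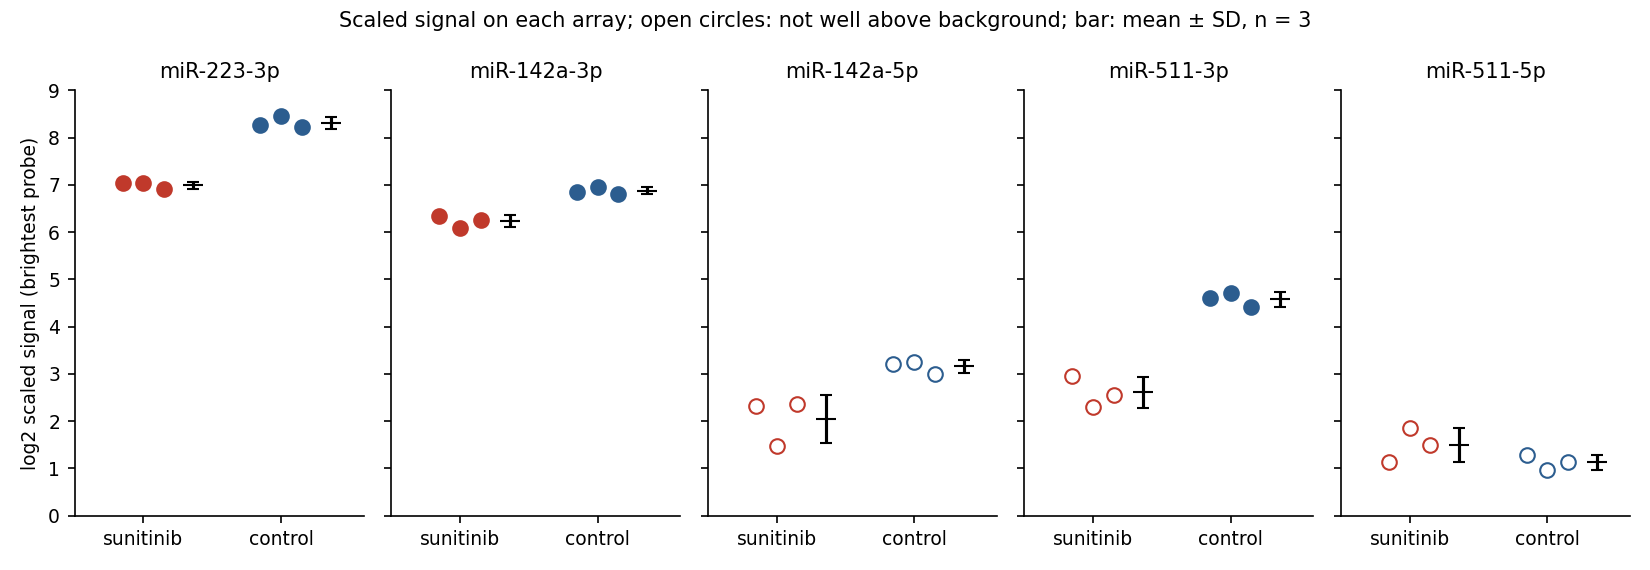
Log2 scaled signal of the brightest probe of each of the 5 miRNAs on every array, sunitinib left and control right, with mean ± SD (n = 3) beside the points; open circles mark arrays on which the miRNA was not well above background. Sunitinib arrays lie below all control arrays for miR-223-3p, miR-142a-3p, miR-142a-5p and miR-511-3p, and the groups overlap for miR-511-5p.

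miR-142a-3p was also lower on every sunitinib array. Its log2 signal was 6.35, 6.10 and 6.26 in sunitinib replicates 1 to 3 and 6.86, 6.96 and 6.81 in control replicates 1 to 3. The groups did not overlap, with a gap of 0.46 between the highest sunitinib and the lowest control array. The means of 6.24 ± 0.13 in sunitinib and 6.88 ± 0.07 in control (SD, n = 3 each) differed by -0.64 (SE 0.09), or 1.56-fold lower in sunitinib.

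miR-142a-5p, the opposite arm of the same hairpin, was not well above background on any array of either group, so no fold is given. Its measured log2 values were 2.31, 1.46 and 2.36 in sunitinib and 3.22, 3.26 and 3.00 in control replicates 1 to 3. The measured means were 2.04 ± 0.50 and 3.16 ± 0.14 (SD, n = 3 each), in the same direction as miR-142a-3p and without overlap. With normexp background correction the values were 5.89, 6.11 and 6.04 in sunitinib and 6.00, 6.05 and 6.21 in control replicates 1 to 3, which overlap and differ by -0.072. Of its single spots, 0% passed the limit in sunitinib, against up to 26.7% for the shorter and up to 35.7% for the longer probe in control. The scanner software's own detection flag was set for miR-142a-5p on 0 of 3 arrays of sunitinib and 3 of 3 of control.

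The antisense miRNA miR-142b, which is read from the opposite strand of the same locus, was on the arrays too. Its probes carry the sequence of miR-142a-3p itself, not its complement. They were well above background on none of the 6 arrays, with log2 means of 0.17 ± 0.15 in sunitinib and 0.13 ± 0.10 in control (SD, n = 3 each). Since these probes do not pair with miR-142a-3p, their low signal is no test of the probes of miR-142a-3p.

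miR-511-3p was not well above background in sunitinib hearts and was in control hearts. Its log2 signal was 2.96, 2.31 and 2.56 in sunitinib replicates 1 to 3, on 0 of 3 arrays well above background, against 4.61, 4.71 and 4.41 in control replicates 1 to 3, on 3 of 3. The groups did not overlap and stood 1.45 apart. The measured means were 2.61 ± 0.33 in sunitinib and 4.58 ± 0.15 in control (SD, n = 3 each). Because the sunitinib values are below the limit, the difference has only a bound: with the sunitinib arrays set to their lowest well-measured probe (log2 of 3.32, 3.62 and 3.45), miR-511-3p stood lower in sunitinib by at least 2.16-fold. The bound took, on each sunitinib array, the higher of that value and the probe's own, and it carries no error of its own. It is approximate, since the lowest passing probe is no strict limit. On control replicate 2 that probe stood at 3.18, and miR-142a-5p read 3.26 without being well above background. The within-group SD of 0.255 was larger than that of 86.9% of the tested miRNAs.

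miR-511-5p was not well above background on any array. Its brightest probe read 1.15, 1.85 and 1.49 in sunitinib and 1.28, 0.971 and 1.14 in control replicates 1 to 3. These values overlap, and the direction depended on the probe: -0.40 for the probe of 17 bases, -0.036 for that of 18, -0.070 for that of 19 and 0.37 for that of 20. A difference in this arm was not detectable at this signal.

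Each miRNA was read by probes of nearly the same sequence, cut back by a base or more at the end that faces the 5′ end of the miRNA, and they allow the difference to be read more than once on the same arrays. They are shown 5′ to 3′ with the added bases of the longer probe in capitals.
miR-223-3p, shorter: tggggtatttgacaaactga
miR-223-3p, longer: tggggtatttgacaaactgaC
miR-142a-3p, shorter: tccataaagtaggaaacactac
miR-142a-3p, longer: tccataaagtaggaaacactacA
miR-142a-5p, shorter: agtagtgctttctacttt
miR-142a-5p, longer: agtagtgctttctactttA
miR-511-3p, shorter: atcctgtcttttgctac
miR-511-3p, longer: atcctgtcttttgctacA
miR-511-5p, shortest: tgagtgcagagcaaaag
miR-511-5p, longest: tgagtgcagagcaaaagGCA

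The longer probe pairs with bases 2 to 22 of miR-223-3p, 1 to 23 of miR-142a-3p, 3 to 21 of miR-142a-5p and 5 to 22 of miR-511-3p. The first bases of the seed of miR-511-3p and base 2 of that of miR-142a-5p are therefore not read. The shorter probe of miR-223-3p starts at base 3 and misses base 2 as well. The shorter and longer probe gave close differences in every case. For miR-223-3p they were -1.39 with 20 bases and -1.32 with 21. For miR-142a-3p they were -0.65 with 22 bases and -0.64 with 23. For miR-142a-5p the measured values were -1.09 with 19 bases and -1.11 with 18, and for miR-511-3p -2.08 with 17 and -1.97 with 18. All 3 sunitinib arrays lay below all 3 control arrays for each of these 8 probes. Probes of 1 miRNA share the array and its RNA and are no replicates of the treatment.

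**Figure D2:**
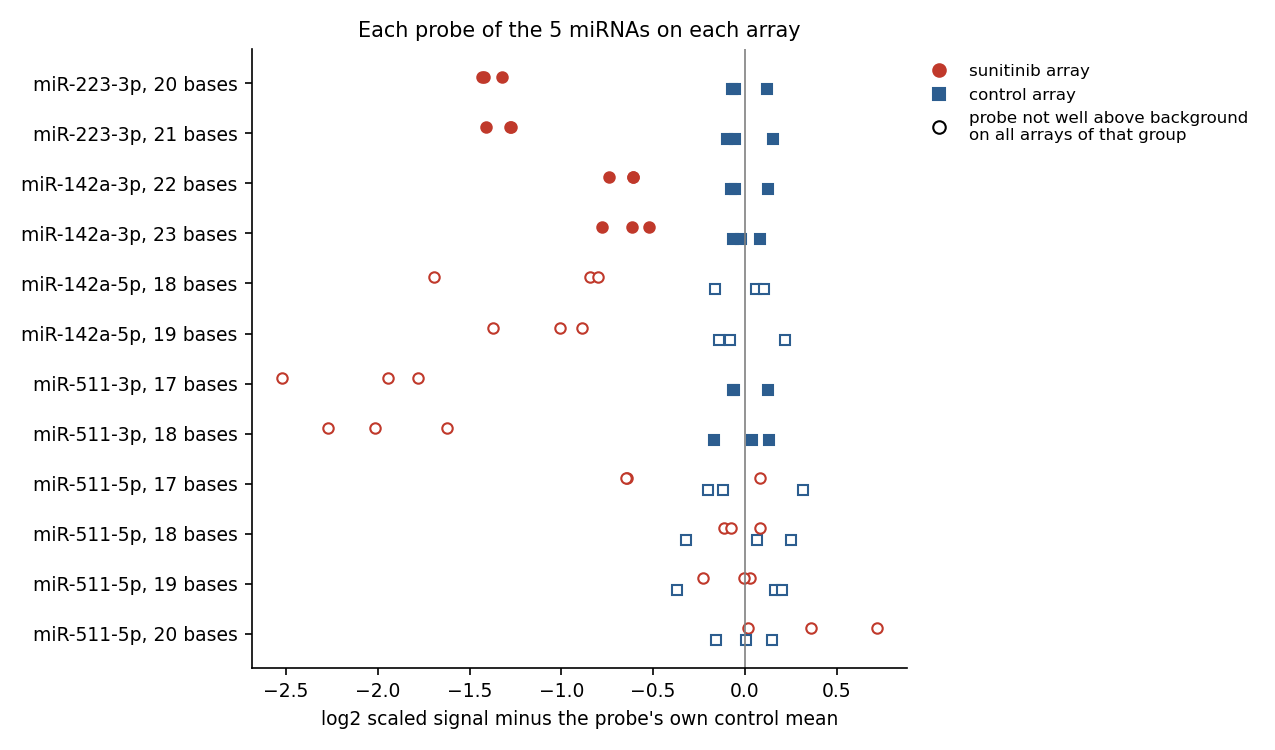
Log2 scaled signal of each probe of the 5 miRNAs on each array, minus the probe's own control mean; red circles are sunitinib arrays, blue squares control arrays, and open symbols mark probes that are dim on at least 1 array of that group. The 8 probes of miR-223-3p, miR-142a-3p, miR-142a-5p and miR-511-3p have all sunitinib arrays left of all control arrays, and the 4 probes of miR-511-5p do not.

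Among the control arrays the miRNAs deviated partly together. Control replicate 2 was the highest control array for miR-223-3p, miR-142a-3p, miR-142a-5p and miR-511-3p. Sunitinib replicate 2 was the lowest sunitinib array for miR-142a-3p, miR-142a-5p and miR-511-3p, and sunitinib replicate 3 for miR-223-3p. miR-142a-5p and miR-511-3p were not well above background on any sunitinib array, nor miR-142a-5p on any control array. Their order on those arrays may be noise. Without control replicate 2 the differences were -1.24 for miR-223-3p, -0.60 for miR-142a-3p and -1.90, as measured, for miR-511-3p.

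The slide row moved with the groups. All 3 control arrays and sunitinib replicate 3 lay in row 2, sunitinib replicates 1 and 2 in row 1, so that row and treatment can be told apart by 1 sunitinib array only. Within row 2 the difference was -1.41 for miR-223-3p, -0.62 for miR-142a-3p and, as measured, -0.80 for miR-142a-5p. There miR-511-3p stood at least 2.18-fold lower in sunitinib replicate 3, by the same approximate bound. These differences have the direction of those over all arrays. They use arrays of the contrast that chose the set, so the shared direction is no test of the row.

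In the limma fit across all 237 tested miRNAs, 8 passed an adjusted p of 0.05, or 3.38%: 4 higher in sunitinib (1.69%) and 4 lower (1.69%). To be tested, a miRNA had to be well above background on every array of sunitinib or of control, which 3 of the 5 were. miR-511-3p met it through the control arrays alone, which by itself favours a lower value in sunitinib. The 3 tested were 3 of the 4 called lower, and the other was miR-532-5p. Since that contrast chose the 3, nothing is read from this count. The call of miR-142a-3p was lost without any 1 of the 3 control arrays, and under other settings given further on, and blocking on slide row ended it for both miR-142a-3p and miR-511-3p. Sunitinib arrays lay wholly below control arrays for 22 of the 237 tested miRNAs, or 9.28%, and for 111 of all 1881, or 5.9%. The 4 miRNAs without overlap described above are among these 111.

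Other miRNAs known from myeloid differentiation or macrophage activation gave no called difference under the reported setting. Of 26 listed, 25 were on the arrays and 17 were tested. Which cells of the ventricle these 17 came from was not tested. The limma fit called 0 of the 17 higher and 0 lower, against 4 and 4 of all 237 tested (1.69% each). At that share a list of 17 would hold few calls or none, so the count is not read as a result. Before adjustment, 1 had a p under 0.05 in the higher and 2 in the lower direction, against 25 and 20 of all 237 tested. The median of their log2 differences was 0.022, against 0.019 over all tested miRNAs, with 9 above 0 and 8 below. Their summed scaled signal ran from 24141 to 25211 in sunitinib and from 24093 to 24580 in control. Such a sum is carried by the brightest probes, miR-22-3p and miR-125b-5p here, and a change in a dimmer miRNA such as miR-146a-5p does not show in it. The 8 others, miR-223-5p and miR-142b among them, were well above background on no array.

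The widest difference in that list was that of miR-146a-5p, which NF-kB induces and which damps Toll-like receptor signalling. Its log2 signal was 6.38, 6.61 and 6.38 in sunitinib and 7.25, 8.07 and 7.12 in control replicates 1 to 3. The groups did not overlap, and the difference of -1.02 (SE 0.25) missed the threshold (limma adjusted p = 0.093). It passed in the authors' deposited table (-1.21, limma adjusted p = 0.021) and under other settings given further on. miR-212-3p, induced by CREB, had -0.45 (limma adjusted p = 0.246). miR-155-5p, induced in activated macrophages and lymphocytes, had 0.15 (limma adjusted p = 0.246). miR-328-3p had 0.20 (limma adjusted p = 0.266).

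Markers of other blood cells gave none either. Over all 237 tested miRNAs limma called 8, or 3.38%. At that share, lists of 7 and 5 would hold few calls or none, so their counts are not read as a result. Of 7 lymphocyte miRNAs tested, limma called 0, and 1 was higher at an unadjusted p under 0.05, against 25 of all 237. That 1 was miR-155-5p, which is in the myeloid list too, as is miR-342-3p. The median difference of the 7 was -0.0053, with 3 above 0 and 4 below. miR-150-5p, abundant in mature lymphocytes, had 7.45, 6.82 and 7.52 in sunitinib and 6.94, 6.89 and 6.92 in control replicates 1 to 3, a difference of 0.35 (limma adjusted p = 0.359) with overlapping groups. miR-181a-5p had -0.15 (limma adjusted p = 0.407) and miR-181c-5p -0.10 (limma adjusted p = 0.454). The sunitinib arrays lay wholly below control for miR-181c-5p and wholly above for miR-155-5p, as for 22 and 43 of all 237 tested. The summed scaled signal of the 7 ran from 609 to 707 in sunitinib and from 631 to 637 in control. Of 5 erythroid miRNAs tested, limma called 0, and 0 had an unadjusted p under 0.05. Their median difference was 0.12, with 3 above 0 and 2 below, and their summed scaled signal 4585 to 4850 in sunitinib and 3520 to 5053 in control. miR-144-5p had 0.32 (limma adjusted p = 0.407), miR-486a-3p 0.12 (limma adjusted p = 0.570) and miR-144-3p -0.10 (limma adjusted p = 0.731). miR-451a, the most abundant miRNA of red cells, had 11.93, 11.97 and 11.97 in sunitinib and 12.07, 11.43 and 11.81 in control replicates 1 to 3, a difference of 0.19 (limma adjusted p = 0.597).

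**Figure D3:**
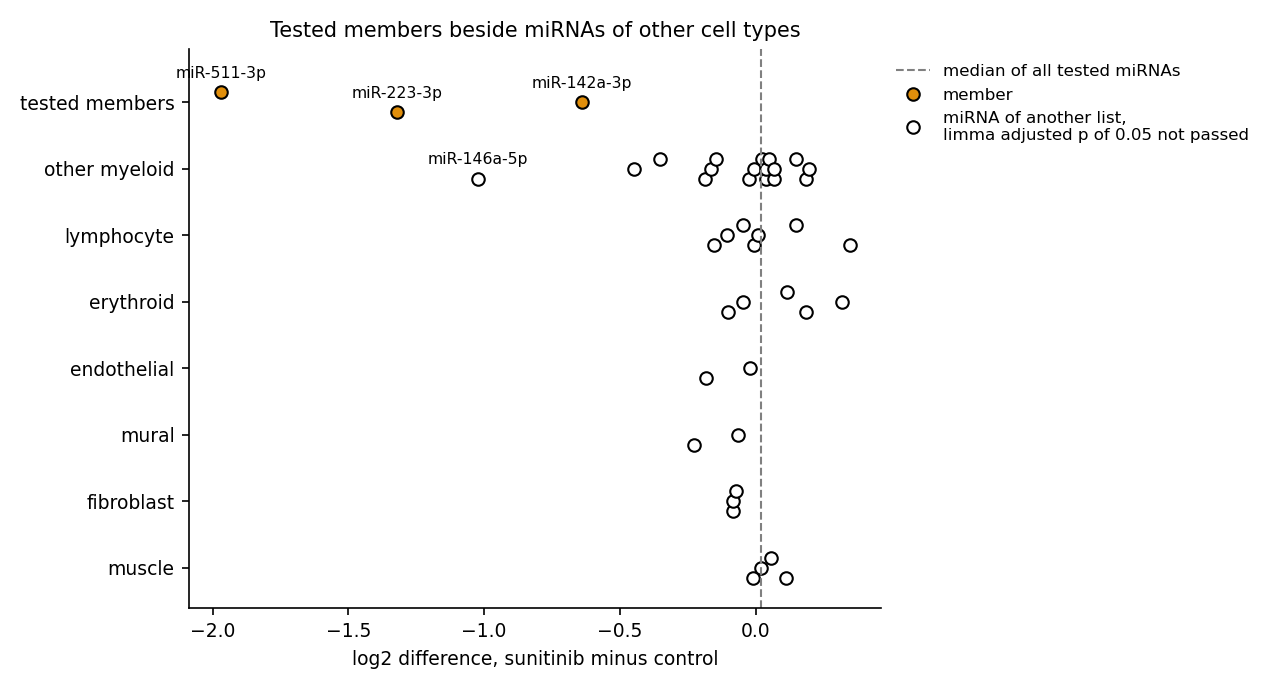
Log2 difference (sunitinib minus control) of the 3 tested members, filled, and of tested miRNAs of 7 other lists, open; the dashed line is the median of all 237 tested miRNAs. miR-223-3p lies at -1.32, miR-142a-3p at -0.64 and miR-511-3p at its measured -1.97, for which only an approximate bound of at least 2.16-fold is given. Of the open points only miR-146a-5p, at -1.02, lies below -0.64.

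The cells of the heart wall likewise gave no called difference. limma called 0 of 2 endothelial, 0 of 2 mural, 0 of 3 fibroblast and 0 of 4 muscle miRNAs, against 8 of all 237 tested, or 3.38%. Lists this short would hold few calls or none at that share, so these counts are not read as a result. Before adjustment 1 had a p under 0.05, miR-145a-5p of smooth muscle and pericytes, with a difference of -0.23 (limma adjusted p = 0.211). miR-126a-3p, the main endothelial miRNA, had -0.019 (limma adjusted p = 0.884), and its other arm, miR-126a-5p, had -0.18 (limma adjusted p = 0.535). miR-214-3p of fibroblasts had -0.084 (limma adjusted p = 0.597) and miR-133a-3p of muscle 0.11 (limma adjusted p = 0.460). In RNA of whole ventricle, fewer cells of a type and less of a miRNA per cell cannot be told apart. What part the share of each cell type has in the differences of miR-511-3p, miR-223-3p and miR-142a-3p was not tested.

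The miRNAs whose pattern over the 6 arrays came nearest to miR-223-3p were found by the root mean square difference of log2 values, each centred on its own control mean, among the 236 others tested. Nearest was miR-146a-5p (0.313), then miR-142a-3p (0.492), miR-511-3p as measured (0.498), miR-532-5p (0.563) and miR-127-3p (0.615). Nearest to miR-142a-3p was miR-532-5p (0.122), one of a group of miRNAs within Clcn5, with a difference of -0.54 and called lower by limma. It was followed by miR-127-3p of the imprinted Dlk1-Dio3 cluster (0.193), miR-362-3p (0.213), miR-7a-5p (0.224) and miR-500-3p (0.257). Their log2 differences were -0.45, -0.38, -0.36 and -0.32. miR-362-3p and miR-500-3p are of the Clcn5 group too. The likeness takes in the treatment difference itself and the arrays' shared deviations.

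**Figure D4:**
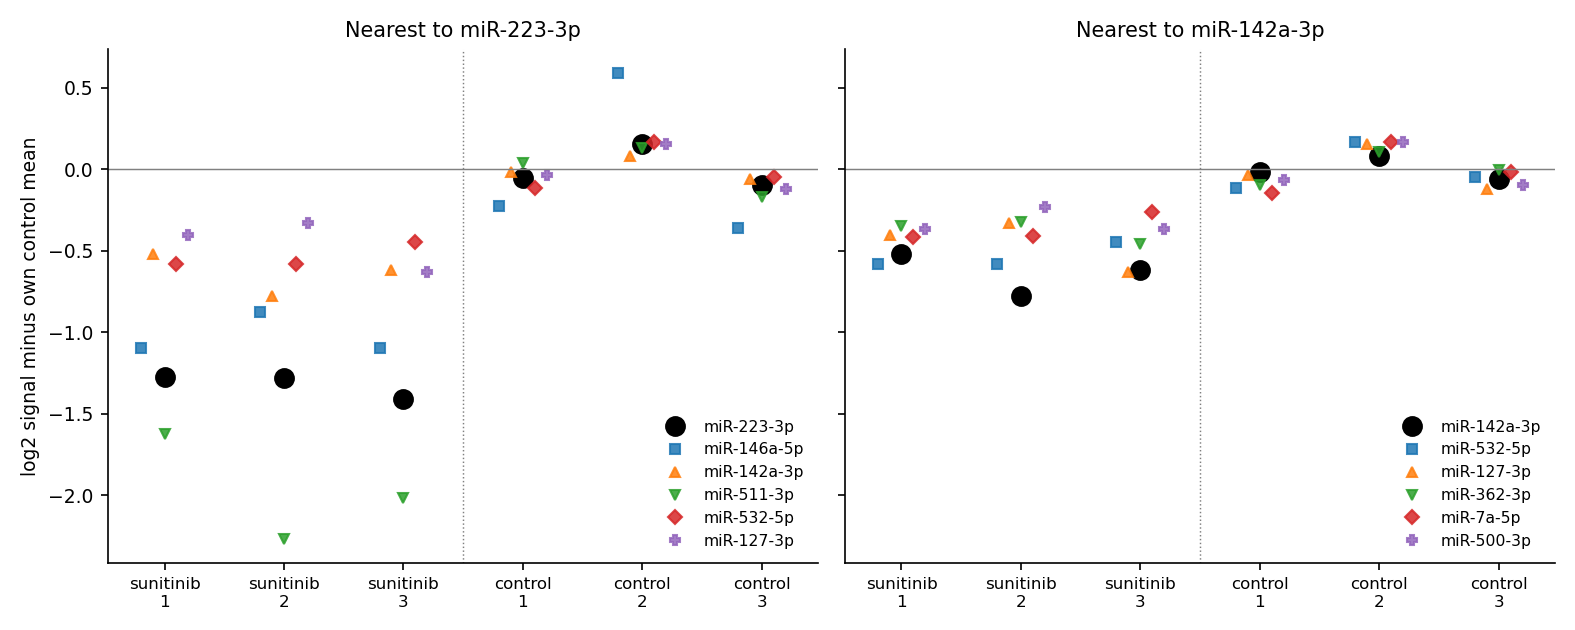
Log2 signal minus own control mean on each array, sunitinib left of the dotted line and control right, for miR-223-3p (left panel) and miR-142a-3p (right panel), in black, with the 5 nearest tested miRNAs of each. Among the neighbours of miR-223-3p, miR-511-3p lies below it on all 3 sunitinib arrays and the other 4 above it.

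The authors' deposited value table gave the same miRNAs with other sizes. There miR-223-3p had 6.22, 6.18 and 6.15 in sunitinib and 7.49, 7.67 and 7.44 in control replicates 1 to 3, a difference of -1.35. miR-142a-3p had a difference of -0.62 and miR-511-3p of -1.44. The dim arms had -0.48 for miR-142a-5p and -0.016 for miR-511-5p. The sunitinib values of the first 4 lay below all control values in that table as well. How that table was scaled and centred is not stated in the labels.

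The scanner software's summed signal disagreed with the sum of its probe totals for miR-511-3p on 1 array where it was flagged as detected. On sunitinib replicate 1 it stood at 435.8, while the totals of the pair of probes on that array summed to 3.07. In sunitinib replicates 2 and 3, where the software did not flag the miRNA as detected, the summed signal was 0.805 and 0.752. In control replicates 1 to 3 the summed signal was 8.91, 9.20 and 6.36, equal to the sum of the probe totals to 3 digits. Over the summed signal the log2 difference of miR-511-3p was -0.10, and over the sum of the probe totals -1.88. Such gaps were not confined to miR-511-3p: on each array the summed signal was over 1.5-fold away from the sum of the probe totals for 79 to 93 of the 288 to 309 miRNAs flagged as detected. The summed signals of miR-223-3p and miR-142a-3p equalled their probe sums on all 6 arrays to 3 digits. That of miR-142a-5p was 1.54 on control replicate 3, where it was flagged as detected, against a probe sum of 2.97. On control replicates 1 and 2 it equalled the probe sum to 3 digits.

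The background correction moved the measured differences of all 5. With normexp, which adds an offset of 50 to every signal and so pulls dim probes together by construction, the differences were -1.01 for miR-223-3p, -0.38 for miR-142a-3p, -0.31 for miR-511-3p, -0.072 for miR-142a-5p and 0.045 for miR-511-5p.

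**Figure D5:**
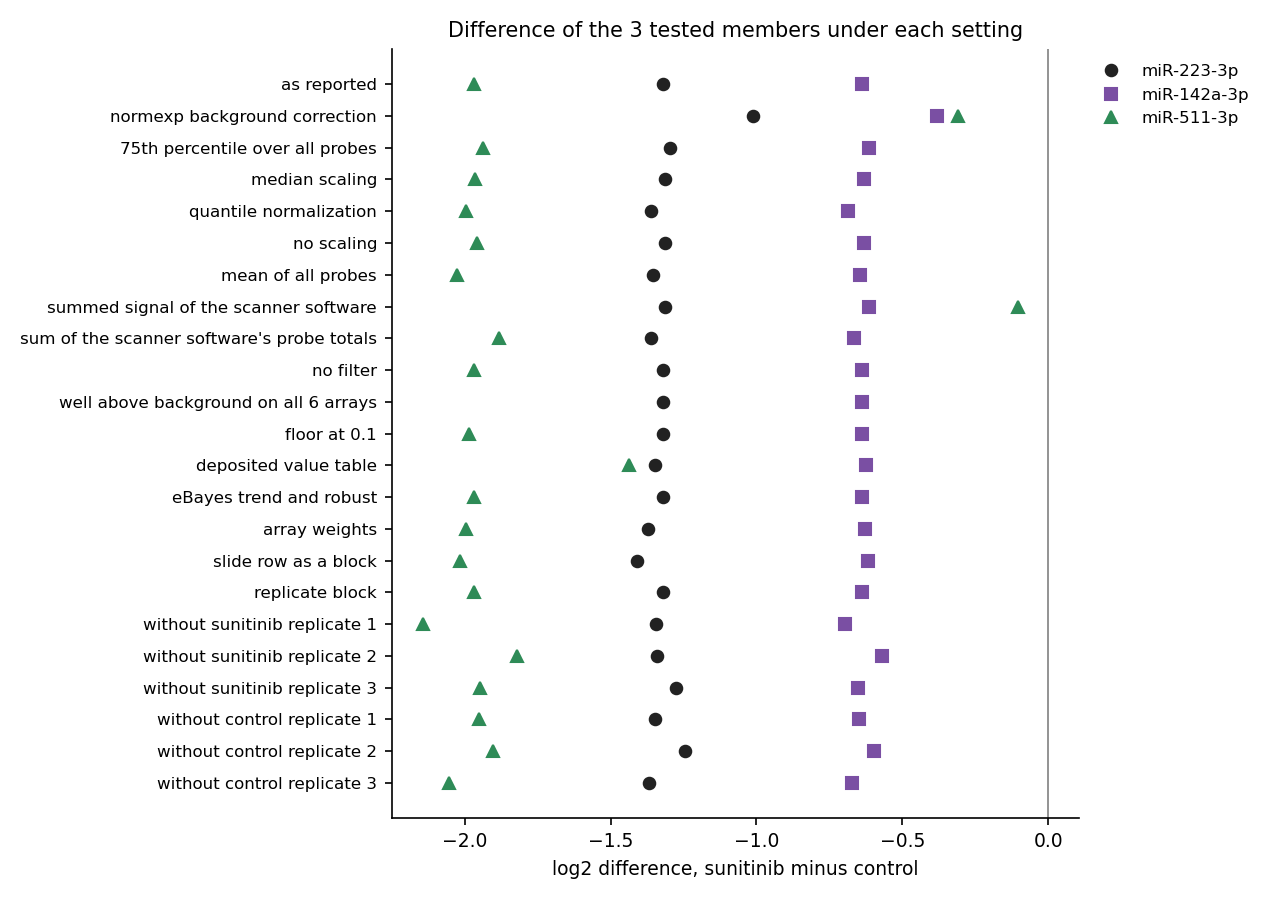
Log2 difference (sunitinib minus control) of miR-511-3p (as measured), miR-223-3p and miR-142a-3p under the reported setting and each alternative. miR-223-3p stays between -1.41 and -1.01 and miR-142a-3p between -0.70 and -0.38, while miR-511-3p moves to -0.31 with normexp and to -0.10 with the summed signal.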

How the data were processed

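Spots were read as intensity on a linear scale from the authors' deposited scanner files, already background-subtracted by Agilent Feature Extraction (10.7.1.1 per the file headers, 10.7 per the submitters' processing notes). The authors' deposited table of log2 values, an alternative here, has column medians of 2.199, 2.200 and 2.196 in sunitinib and 2.196, 2.195 and 2.196 in control replicates 1 to 3, with scale and centring unstated.

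Control spots were left out, leaving 4415 probes on 56430 spots. Of these spots, 1572 to 1727 per array were flagged as outliers and left out too. Arrays were scaled on the 75th percentile of the 393 probes that every array measured well, then floored at 1, taken to log2 and averaged by probe. The brightest probe stood for its miRNA. Sunitinib and control were compared with limma 3.58.1 (lmFit, eBayes) in R 4.3.3, and p-values were Benjamini-Hochberg adjusted across all 237 tested. The fit was tested on simulated data. The number of arrays limits the precision.

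The miRNAs described and the lists were chosen with earlier results of these data known. Named besides are, per list, up to 4 tested miRNAs of smallest p, the products miR-223-5p and miR-142b, and the 5 nearest patterns. Alternatives covered background correction, scaling, probe summary, filter, floor, source of values, variance model, array weights, blocks and leaving out each sample. miR-106a-5p of the myeloid list was not among the array's names.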

Additional observations from a re-analysis of the deposited data

How the results depend on the processing

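The sum of probe totals was chosen after seeing the data. miR-223-3p and miR-142a-3p were below 0 under all 21 other settings chosen earlier, within 1 within-group SD in 20 of 21 each, and moved with normexp to -1.01 and -0.38. Leaving out a sample, miR-223-3p ranged between -1.37 and -1.24, miR-142a-3p between -0.70 and -0.57, and miR-511-3p as measured between -2.14 and -1.82. miR-511-3p moved to -0.31 with normexp, -0.10 with the summed signal and -1.44 in the deposited table, and was not tested where detection on all 6 arrays was required. miR-511-5p reversed to -0.035 with the mean of all probes and -0.016 in the deposited table. miR-142a-5p moved to -0.072 with normexp, -1.60 with the summed signal and -0.48 in the deposited table. In the summed signal all 3 sunitinib arrays sat at the floor, so that -1.60 is a distance from the floor. The direction of these miRNAs was fixed by how they were chosen and is no sign of stability. The call of miR-142a-3p ended on the summed signal, without a filter, without scaling, with all probes in the percentile, under either block and with any control array left out, and that of miR-511-3p with normexp, the summed signal and the slide row block.

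limma called 4 miRNAs higher and 4 lower as reported. Under normexp it called 2 and 2, on the summed signal 1 and 1, with slide row blocked 0 and 1, and under the replicate block 0 and 2. The higher count was 0 with quantile normalization, 0 without a filter and 1 without scaling; the lower count was 7 with the mean of all probes, 7 with array weights and 7 with the sum of probe totals. Without a sample there were 0 to 5 higher and 2 to 3 lower: 0 and 2 without any 1 control array, 1 and 3 without sunitinib replicate 1 or 2, and 5 and 3 without sunitinib replicate 3. Of the other myeloid miRNAs, 1, miR-146a-5p, was called lower with the percentile over all probes, without scaling, with the mean of all probes and in the deposited table. Deviations of same-numbered samples correlated weakly (0.176, 0.217 and -0.055 for replicates 1 to 3), which cannot settle whether they were paired. The labels do not say, and the reported fit did not block on the replicate number. In this balanced design the replicate block cannot change a difference, only its error.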
